A study of Mus musculus with 24 samples.

Results

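Halofuginone inhibits the prolyl-tRNA synthetase activity of EPRS, the enzyme that charges tRNA with proline and glutamate. Uncharged tRNA activates the kinase GCN2, which phosphorylates the initiation factor eIF2 and lowers the start of translation on most mRNAs, while a few mRNAs with upstream reading frames, Atf4 first among them, are translated more. A sucrose gradient sorts mRNAs by the number of ribosomes they carry, so an mRNA found mostly in light polysomes carries fewer ribosomes on average than one found mostly in heavy polysomes. The results here concern 1 contrast: the heavy to light polysome ratio of each gene with halofuginone, set against the same ratio in vehicle.

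This contrast used 12 of the 24 libraries of the study, those of the heavy and light polysome pools, chosen by treatment and by the gradient fractions named in the deposited column headers. NIH/3T3 cells, an immortalised line of mouse embryo fibroblasts, were grown in 10% serum and treated for 24 h at 37 °C with halofuginone (HF, 100 nM in the sample labels) or with PBS as vehicle. The 4 groups were HF heavy, HF light, Vehicle heavy and Vehicle light polysomes, with 3 libraries each, and heavy polysomes were described as holding more than 5 ribosomes. All groups came from the same line and carried no genetic change, and the labels separate them by drug and pool. The libraries came from 6 gradients, 3 per treatment, and each gradient gave 1 heavy and 1 light pool. Its column carries no tag, tag 2 or tag 4, and values below follow that order. The pools were cut differently: fractions 3 to 6 (light) and 7 to 11 (heavy) in the untagged gradients, and 6 to 13 and 14 to 21 in the tagged ones. The untagged HF columns name 50 nM and not 100 nM, and this discrepancy is not settled. The cultures are called biological triplicates, with nothing further on their origin, so p-values measure the spread between these gradients.

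Libraries held 13363866 to 22488840 counts. All 11 fibroblast markers reached 5 CPM (TMM-scaled counts relative to library size) in at least 1 group, against 0 of 6 epithelial, 0 of 5 endothelial, 1 of 6 leukocyte (Cd68) and 2 of 5 adipocyte markers (Lpl and Fabp4). The summed level of the leukocyte markers was 2.43 to 5.74 CPM in HF heavy and 2.20 to 4.52 CPM in HF light libraries, against 4.81 to 10.0 CPM in Vehicle heavy and 2.22 to 6.08 CPM in Vehicle light libraries, and Itgam and Cd3e were among those at 0 in every library. Mitochondrially encoded RNA took 0.354 to 0.746% of counts in HF heavy and 2.45 to 7.71% in HF light libraries, against 0.276 to 0.394% in Vehicle heavy and 2.41 to 4.98% in Vehicle light libraries. The tag 2 gradients stood apart in the polysome level of Asns, the asparagine synthetase gene induced by ATF4. It reached 808, 208 and 895 CPM in HF heavy libraries, against 344, 249 and 455 CPM in Vehicle heavy libraries. In the tag 2 pair of gradients it was thus no higher with HF. Total RNA differed: there Asns had 240, 432 and 414 CPM with HF, against 216, 179 and 169 CPM in vehicle. Those columns carry no tag, tag 2 and tag 3, and no label ties a tag to a culture. Leaving out both tag 2 gradients gave 0 calls, a collagen median of -0.41 and a ribosomal protein median of 0.29, lists described below.

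The difference of differences is the log2 heavy to light ratio with HF minus that in vehicle, so a negative value is a lower share in heavy relative to light polysomes with HF. No gene of 13141 tested passed an adjusted p of 0.05 in the fit that pairs the 2 pools of a gradient (edgeR quasi-likelihood test, 0% called), where the smallest adjusted p was 0.99996. At an unadjusted p under 0.05 there were 156 genes (1.19%), 39 higher (0.297%) and 117 lower (0.89%). That share is smaller than the threshold alone would give with no effect in any gene. DESeq2 called 1 gene, Avil, at an adjusted p of 0.00113. The split of the genes at that threshold differed between settings, each of which has its own set of genes: it was 72 higher and 54 lower with RLE size factors, 54 and 73 with TMM within each pool, 64 and 45 with library totals, and 60 and 12 with the filter on genes averaging at least 5 CPM. The median over all genes was -0.06 with the main scaling and 0.02 with RLE, and 61% of genes lay below 0. Gene values below are therefore small shifts read against -0.06, and each missed the adjusted threshold unless stated.

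Heavy to light ratios were similar between treatments within a tag, with a correlation across genes of 0.958, 0.935 and 0.893, which share scaling and library depth. Genes are not independent replicates, and these are descriptions. The differences between HF and Vehicle log2 ratios had an SD over genes of 0.27, 0.35 and 0.49 on the log2 scale in the untagged, tag 2 and tag 4 pairs. Those differences correlated between pairs at only -0.06 to 0.10. The median standard error of a gene was 0.29 on the log2 scale, and 0.21 when the tag was also a block. The tags were taken to pair the gradients by their correlated deviations, but no label ties a tag to a culture. The untagged gradients also share a fraction cut of their own, which cannot be told apart from a shared culture. The correlation of deviations was only 0.167 for tag 4, and the HF tag 4 gradient correlated more with the untagged Vehicle gradient (0.328). With that block 3 genes were called (0.0228%), Avil, Porcn and the predicted gene Gm14438, and at an unadjusted p under 0.05 there were 128 genes higher (0.974%) and 401 lower (3.05%).

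**Figure D1:**
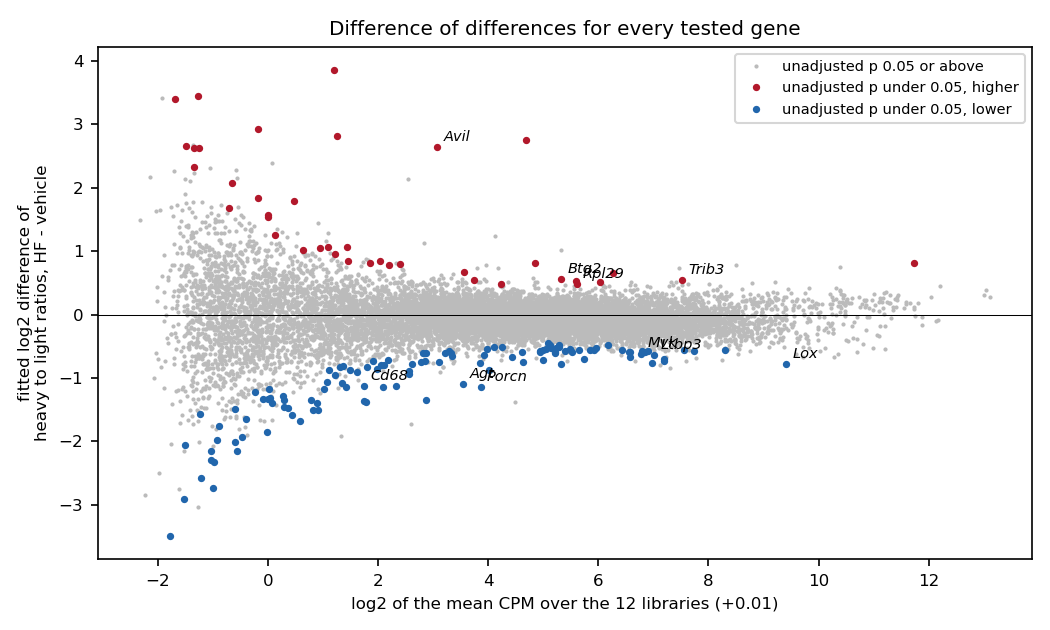
Each point is 1 of 13141 tested genes. The horizontal axis is the log2 mean CPM over the 12 libraries, the vertical axis the fitted log2 difference of heavy to light ratios, HF minus vehicle, and colours mark the 39 higher and 117 lower genes at an unadjusted p under 0.05. Avil lies far above genes of similar level, at 2.64.

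Avil encodes advillin, an actin-bundling protein of the villin family, on chromosome 10 (GRCm38 chr10:127000709-127020994, plus strand). Its heavy to light ratio was 2.43, 1.85 and 3.26 in HF gradients, against 0.364, 0.146 and 0.678 in Vehicle gradients. The groups did not overlap, and Avil took a larger share of the heavy than of the light library in every HF gradient and a smaller one in every Vehicle gradient. Each pool was scaled to its own total, so a ratio compares shares of 2 libraries and does not say which pool held more of an mRNA. In CPM, HF heavy libraries had 21.7, 5.75 and 42.8 and HF light libraries 8.95, 3.10 and 13.1, against 0.367, 0.124 and 1.21 in Vehicle heavy and 1.01, 0.849 and 1.79 in Vehicle light libraries. The Vehicle heavy values rest on 8, 3 and 16 counts. The fitted log2 difference was 2.64 ± 0.46 (SE; 95% interval 1.63 to 3.65; unadjusted p = 0.00011), missing the adjusted threshold in the paired-pool fit. With the tag block it was 2.67 ± 0.36, which passed (edgeR adjusted p = 0.001202). In total RNA, Avil stood at 8.03, 14.6 and 15.3 CPM with HF, against 0.870, 0.427 and 0.882 CPM in vehicle. The total RNA columns carry no tag, tag 2 and tag 3, in that order, so the last value matches no gradient by tag. The annotated span of Avil shares 9423 bases with Tsfm on the other strand. Tsfm itself had a log2 difference of -0.14, and the strand setting of the counting is not given in the sources used here.

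Porcn encodes the acyltransferase that attaches a lipid to Wnt proteins (chrX:8193848-8206525, minus strand). Its ratio was 0.557, 0.603 and 0.703 in HF gradients, against 1.08, 1.24 and 1.87 in Vehicle gradients. No HF gradient reached any Vehicle gradient. It had 4.51, 6.32 and 11.7 CPM in HF heavy and 8.11, 10.5 and 16.7 CPM in HF light libraries, against 7.44, 17.8 and 45.6 CPM in Vehicle heavy and 6.91, 14.3 and 24.4 CPM in Vehicle light libraries. The log2 difference was -1.14 ± 0.27 (SE; 95% interval -1.74 to -0.55; unadjusted p = 0.001359). With the tag block Porcn passed, with a log2 difference of -1.15 ± 0.21 (edgeR adjusted p = 0.03957). In total RNA, with the library order given for Avil, it had 10.8, 9.60 and 7.73 CPM with HF, against 10.5, 11.9 and 12.8 CPM in vehicle.

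Gm14438 was called with the tag block, but its counts were scattered: 0, 63 and 0 in HF heavy and 48, 0 and 0 in HF light libraries, against 0, 31 and 0 in Vehicle heavy and 0, 69 and 34 in Vehicle light libraries. Several gradients had no count in either pool or in 1 of them, and no fold is given.

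**Figure D2:**
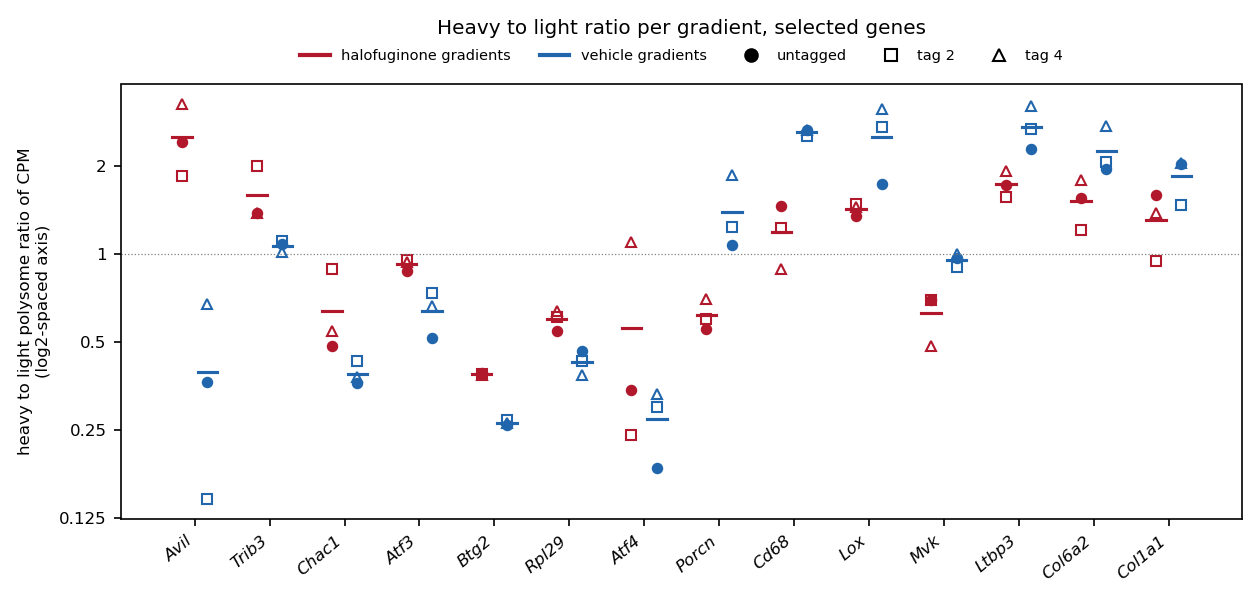
Heavy to light ratios of CPM (log2-spaced axis) in each gradient for 14 genes, with HF gradients left of vehicle gradients, symbols for the column tag and bars at the mean of 3. HF and vehicle do not overlap for 12 of the 14, and they overlap for Atf4 and Col1a1. The genes were selected, several by a rule that asked for ratios without overlap, so this count is no result. Over all tested genes the HF ratios all lay below the vehicle ratios in 3.93% and all above in 1.9%.

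Porcn was 1 of the 10 genes of smallest unadjusted p among those of at least 5 CPM in a group whose HF ratios all lay below the Vehicle ratios. Over all genes, 516 (3.93%) had 3 HF ratios below the 3 Vehicle ratios and 250 (1.9%) had them above. Cd68, a lysosomal membrane glycoprotein abundant in macrophages and 1 of the leukocyte markers summed above, had ratios of 1.47, 1.23 and 0.893 in HF gradients, against 2.65, 2.54 and 2.67 in Vehicle gradients. Its log2 difference was -1.13 ± 0.33 (unadjusted p = 0.005251), with 30 to 65 counts in HF heavy and 98 to 147 in Vehicle heavy libraries. Of the 2 leukocyte markers tested, Cd68 was the 1 below 0, and the other had a log2 difference of 0.42. RNA of a whole culture cannot tell fewer cells with a transcript from less of it per cell.

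Agt, which encodes angiotensinogen, had ratios of 1.28, 1.42 and 0.616 in HF gradients, against 1.60, 3.20 and 3.54 in Vehicle gradients, a log2 difference of -1.09 ± 0.37. Its level also differed widely between gradients, at 0.333 to 16.3 CPM in HF heavy and 6.29 to 48.9 CPM in Vehicle heavy libraries. Sparcl1, a secreted protein related to SPARC, had 2.23, 1.42 and 1.82 in HF gradients, against 3.24, 2.47 and 4.33 in Vehicle gradients, a difference of -0.87 ± 0.30. In both genes the tag 4 pair differed most and the untagged pair least. The tag 4 HF ratio rests on 5 heavy and 7 light counts for Agt, and on 38 and 18 for Sparcl1.

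Others among the 10 lowest were Fbxo41 (-0.89 ± 0.29), an F-box protein, Dpp7 (-0.77 ± 0.26), a dipeptidyl peptidase of intracellular vesicles, and Glb1l (-0.77 ± 0.26), related to beta-galactosidase. Ano8, a member of the anoctamin family, had -0.72 ± 0.23, and Colec12, a scavenger receptor of the collectin family, -0.69 ± 0.22 on the log2 scale. Glb1l shares 1152 bases with Ankzf1 on the other strand, which had 0.13.

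The 10 genes named on the higher side by the same rule were Avil, Chac1, Atf3, Btg2, Gatb, Tdrp, Ovca2, Fam43a, Lekr1 and Rpl29. Trib3, outside those 10 and a pseudokinase induced by ATF4, had ratios of 1.39, 2.0 and 1.39 in HF gradients, against 1.08, 1.11 and 1.01 in Vehicle gradients (log2 difference 0.55 ± 0.25, unadjusted p = 0.04619). It had 275, 71.3 and 682 CPM in HF heavy and 198, 35.6 and 492 CPM in HF light libraries, against 17.7, 49.7 and 160 CPM in Vehicle heavy and 16.4, 44.6 and 158 CPM in Vehicle light libraries. All HF ratios of Trib3 lay above all Vehicle ratios, which were close to 1. Without the HF tag 2 gradient the difference was 0.38.

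Chac1, which degrades glutathione, had ratios of 0.486, 0.893 and 0.549 in HF gradients, against 0.363, 0.431 and 0.379 in Vehicle gradients (0.65 ± 0.26). The value was 0.40 without the HF tag 2 gradient, whose ratio is the highest of the 6. Atf3, a transcription factor of the same response, had 0.879, 0.956 and 0.941 in HF gradients, against 0.519, 0.735 and 0.668 in Vehicle gradients (0.53 ± 0.22). Both genes stayed below a ratio of 1 in all 6 gradients.

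Btg2, an antiproliferative protein that recruits the deadenylase complex, had ratios that were nearly equal within each treatment: 0.392, 0.391 and 0.386 in HF gradients, against 0.260, 0.271 and 0.265 in Vehicle gradients. The means were 0.390 ± 0.00349 with HF and 0.266 ± 0.00553 in vehicle (SD, n = 3 each), and the log2 difference was 0.56 ± 0.20 (unadjusted p = 0.0187). Its level was lower with HF in both pools, at 7.32 to 20.6 CPM in HF heavy and 19 to 52.4 CPM in HF light libraries, against 17.6 to 32.1 CPM in Vehicle heavy and 64.7 to 123 CPM in Vehicle light libraries. The HF and Vehicle ranges overlapped slightly in the heavy pool and not in the light pool.

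Of the other higher genes, Gatb, a subunit of the mitochondrial amidotransferase that makes glutaminyl-tRNA, had 0.81 ± 0.28 and Tdrp 0.80 ± 0.28 on the log2 scale. Ovca2, a serine hydrolase, had 0.68 ± 0.23 and Fam43a 0.51 ± 0.22. The annotated span of Ovca2 shares 1193 bases with Dph1 on the same strand, and Dph1 had -0.25. Lekr1 had 0.84 ± 0.30 and Rpl29, a protein of the large ribosomal subunit, 0.48 ± 0.21.

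Collagens fill a fibroblast's secretory pathway and are rich in proline, the amino acid whose tRNA synthetase halofuginone blocks. A stretch of 24 codons with the most proline codons in the coding sequence of 3 collagens, and of 2 genes with values above 0, is shown so that the codons in question can be seen. Sequences are from GENCODE M21 transcripts on GRCm38, written 5′ to 3′, with proline codons in capitals.

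Col1a1: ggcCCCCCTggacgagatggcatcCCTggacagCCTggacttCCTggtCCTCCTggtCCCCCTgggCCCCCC
Col3a1: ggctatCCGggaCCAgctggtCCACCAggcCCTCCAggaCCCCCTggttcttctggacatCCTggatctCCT
Col6a1: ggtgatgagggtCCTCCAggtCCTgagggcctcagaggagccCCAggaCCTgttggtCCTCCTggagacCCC
Trib3: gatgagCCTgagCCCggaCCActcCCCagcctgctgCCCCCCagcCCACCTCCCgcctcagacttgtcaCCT
Rpl29: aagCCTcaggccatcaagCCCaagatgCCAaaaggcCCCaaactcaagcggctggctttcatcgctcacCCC

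The windows hold 11, 10 and 8 proline codons in Col1a1 (codons 117 to 140), Col3a1 (170 to 193) and Col6a1 (478 to 501), and 10 and 5 in Trib3 (37 to 60) and Rpl29 (77 to 100). Over the whole coding sequence, proline made up 19% of codons in Col1a1, 19.5% in Col3a1, 8.0% in Col6a1, 9.60% in Trib3 and 9.38% in Rpl29.

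Of 20 collagen genes tested, 19 were below 0 and 1 above, with a median log2 difference of -0.46, against -0.06 over all genes, where 61% were below 0. None was called, and 1 (Col6a2) had an unadjusted p under 0.05 on the lower side, where 0.89% of all genes did. With the tag block none was called either, and 10 of the 20 had an unadjusted p under 0.05 on the lower side, against 3.05% of all genes. The median HF ratio over the collagens was 1.76, 1.02 and 1.99, against 2.75, 1.66 and 2.18 in Vehicle gradients. Each pair was lower with HF, the tag 4 pair least, with median pair differences of -0.57, -0.62 and -0.22. The exception, Col18a1 (0.10), encodes a basement membrane collagen. The median stayed between -0.63 and -0.20 in all 18 alternative settings. It was -0.20 without the HF tag 2 gradient, where the Vehicle tag 2 gradient stayed in the fit. Leaving out both tag 2 gradients moved it less, as given above.

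Col1a1, the main chain of type I collagen (chr11:94936224-94953042, plus strand), had ratios of 1.59, 0.953 and 1.38 in HF gradients, against 2.04, 1.47 and 2.05 in Vehicle gradients. HF was lower within every tag, but the groups overlapped because the tag 2 Vehicle gradient was low. It had 1024, 147 and 428 CPM in HF heavy and 644, 155 and 310 CPM in HF light libraries, against 2287, 415 and 2232 CPM in Vehicle heavy and 1119, 282 and 1091 CPM in Vehicle light libraries. The log2 difference was -0.52 ± 0.31 (95% interval -1.19 to 0.15), which missed the test. It was -0.31 without the HF tag 2 gradient.

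Col3a1, the chain of type III collagen, had ratios of 1.76, 0.932 and 2.13 in HF gradients, against 2.53, 1.67 and 2.42 in Vehicle gradients, a difference of -0.50 ± 0.32. Col6a1, a chain of type VI collagen, had 1.76, 0.980 and 1.75 in HF gradients, against 2.32, 1.71 and 2.09 in Vehicle gradients, a difference of -0.48 ± 0.29. Without the HF tag 2 gradient Col3a1 was at -0.19 and Col6a1 at -0.20. Its partner chain Col6a2 had 1.55, 1.21 and 1.79 in HF gradients, against 1.96, 2.07 and 2.76 in Vehicle gradients. Col6a2 was the collagen with the smallest p, its ratios did not overlap, and its log2 difference was -0.58 ± 0.26 (unadjusted p = 0.04791). Col16a1 (-0.74 ± 0.34) and Col1a2 (-0.37 ± 0.36) had wider errors, and were at -0.36 and -0.09 without the HF tag 2 gradient.

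Collagen mRNAs took a smaller share of both pools with HF. The median log2 difference of HF from vehicle was -1.21 in heavy and -0.63 in light polysomes over the 20 genes, so the lower heavy to light ratio accompanied a lower share in each pool. For the 11420 tested genes with a complete coding sequence, the median contrast was -0.10 in the longest of 5 length bins, and the collagens have a median of 1691 codons. The part of length in the collagen result was not tested.

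Enzymes that modify and process collagen showed the same side for all tested members: 0 of 23 were above 0, with a median of -0.33. An unadjusted p under 0.05 on the lower side was found for 2 of them, against 0.89% of all genes. With the tag block it was found for 4, against 3.05% of all genes. The pair medians were -0.03, -0.51 and -0.53, so the untagged pair hardly differed, and the median was -0.50 without the Vehicle untagged gradient. Lox, lysyl oxidase, which starts collagen and elastin crosslinks, had ratios of 1.35, 1.49 and 1.45 in HF gradients, against 1.74, 2.72 and 3.13 in Vehicle gradients. The HF ratios were nearly equal, and all lay below the lowest Vehicle ratio. It had 427, 371 and 211 CPM in HF heavy and 316, 249 and 145 CPM in HF light libraries, against 1385, 849 and 2368 CPM in Vehicle heavy and 797, 312 and 756 CPM in Vehicle light libraries. The log2 difference was -0.78 ± 0.30 (unadjusted p = 0.02304). P4ha3, a subunit of prolyl hydroxylase, had -0.67 ± 0.30. P3h2, another prolyl hydroxylase, was nearest to 0 at -0.04.

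Of 34 other matrix genes, 31 were below 0, with a median of -0.30 that was -0.16 without the HF tag 2 and -0.47 without the Vehicle tag 2 gradient. With the tag block 6 of them had an unadjusted p under 0.05 on the lower side, where 3.05% of all genes did. Without it 2 did, against 0.89% of all genes. Ltbp3, which binds latent TGF-beta, had ratios of 1.72, 1.57 and 1.93 in HF gradients, against 2.29, 2.69 and 3.21 in Vehicle gradients, a difference of -0.64 ± 0.23. Its light share was close between treatments, at 120, 52.4 and 75.5 CPM in HF light and 129, 52.1 and 58.8 CPM in Vehicle light libraries, while heavy libraries had 206, 82.6 and 146 CPM with HF and 296, 140 and 189 CPM in vehicle. Ltbp3 was thus lower with HF in every heavy pair and in 1 of 3 light pairs. Emilin1, an elastin-associated glycoprotein, had -0.56 ± 0.22 with ratios that did not overlap. Fn1, fibronectin, had 1.55, 0.889 and 1.52 in HF gradients, against 2.28, 1.24 and 1.33 in Vehicle gradients, and was lower with HF in 2 of 3 pairs (-0.28 ± 0.35), with 0.00 left without the Vehicle untagged gradient. Of 29 TGF-beta and contractile genes, 22 were below 0, with a median of -0.14. Acta2, smooth muscle actin, had -0.13 ± 0.50 with pair differences of 0.48, 0.36 and -1.17.

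Lipid synthesis mRNAs lay on the same side. The cholesterol synthesis list had a median of -0.23, with 23 of 25 members below 0, and the fatty acid synthesis list one of -0.29, with 13 of 14 below 0. Mvk, mevalonate kinase, had ratios of 0.698, 0.701 and 0.487 in HF gradients, against 0.972, 0.906 and 1.00 in Vehicle gradients, a log2 difference of -0.62 ± 0.23. The Vehicle ratios were close to 1 and the HF ratios all lower, and the difference was -0.36 without the HF tag 4 gradient. Fads2, a fatty acid desaturase, had -0.67 ± 0.30 (-0.43 without the Vehicle tag 4 gradient) and Hsd17b7, a ketoreductase of the sterol pathway, -0.43 ± 0.22. Hmgcs1, the synthase at the head of the pathway, had 2.02, 0.875 and 2.25 in HF gradients, against 2.11, 1.30 and 2.15 in Vehicle gradients, with no common direction (-0.21 ± 0.36). The cholesterol list had a median HF minus Vehicle difference of -1.65 in heavy and -1.34 in light polysomes, so its share was lower in both pools. Its median contrast was -0.15 with RLE scaling and -0.12 without the HF tag 4 gradient.

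The ER chaperones, which fold secreted proteins, had 18 of 22 genes below 0. Their median was -0.26, and the pair medians were 0.01, -0.24 and -0.43, with -0.16 left without the HF tag 4 gradient. Pdia3, a disulfide isomerase of the endoplasmic reticulum, had ratios of 2.84, 2.20 and 2.65 in HF gradients, against 2.89, 4.16 and 5.59 in Vehicle gradients (-0.67 ± 0.32). Pdia6, another isomerase, had -0.72 ± 0.35. Without the Vehicle tag 4 gradient they were at -0.44 and -0.40. In both, the tagged pairs carried the difference and the untagged pair showed nearly none or the opposite. The interferon response (median -0.26, 13 of 17 below 0) and glycolysis (-0.17, 14 of 15 below 0) had pair medians of -0.18, -0.30 and -0.19, and of 0.21, -0.46 and -0.39.

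The proteasome list depended on 1 pair of gradients. Its median was -0.16 with 26 of 31 below 0, but the pair medians were 0.22, 0.18 and -0.80. The HF ratio over its subunits was 2.63, 3.56 and 2.06, against 2.21, 3.18 and 3.92 in vehicle. Without the tag 4 gradients Psmd6, a regulatory subunit, was at 0.09 instead of -0.44.

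**Figure D3:**
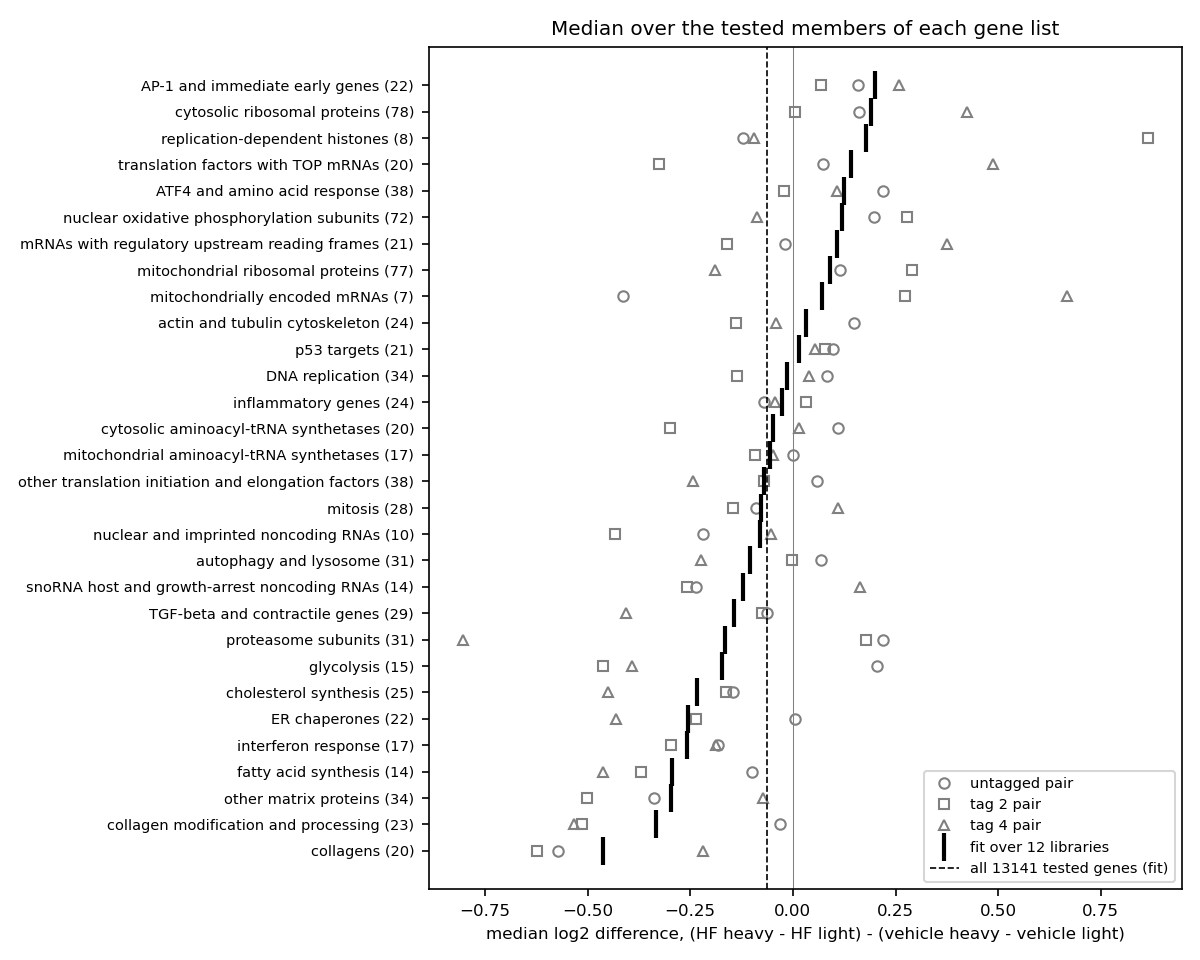
Median log2 difference of heavy to light ratios, HF minus vehicle, over the tested members of 30 gene lists, with their number in brackets. Black ticks are the fit over 12 libraries, open symbols the 3 tag pairs and the dashed line all tested genes at -0.06. Collagens lie lowest at -0.46, and the pairs of many lists fall on both sides of 0.

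Ribosomal protein mRNAs, which start with an oligopyrimidine tract (TOP) that couples their translation to growth signals, lay on the opposite side of the matrix genes. Of 78 cytosolic ribosomal protein genes, 75 were above 0, against 39% of all genes, with a median of 0.19. The median HF ratio was 0.559, 0.392 and 0.436, against 0.500, 0.387 and 0.323 in Vehicle gradients. These medians were below 1 in every gradient, and the treatments were almost equal in the tag 2 pair (0.00, against 0.16 in the untagged and 0.42 in the tag 4 pair). The list median stayed between 0.06 (without the HF untagged gradient) and 0.35 (without the Vehicle untagged gradient) in all 18 alternative settings. Rpl29 had ratios of 0.548, 0.609 and 0.641 in HF gradients, against 0.467, 0.431 and 0.386 in Vehicle gradients (0.48 ± 0.21, unadjusted p = 0.03788). It was the single member with an unadjusted p under 0.05, where 0.297% of all genes had one on the higher side. HF ratios were all above the Vehicle ratios in 3 of the 78, against 1.9% of all genes. Many ribosomal protein genes have near-identical pseudogenes, so single values are less certain.

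The starts of 4 of these mRNAs, the first by alphabet whose RefSeq start on GRCm38.p6 holds the motif, show the tract. Each line gives 10 bases before the start and 20 from it, with the pyrimidine run in capitals.

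Fau: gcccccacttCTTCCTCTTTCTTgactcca
Rpl14: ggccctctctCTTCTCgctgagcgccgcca
Rpl15: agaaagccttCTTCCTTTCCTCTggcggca
Rpl28: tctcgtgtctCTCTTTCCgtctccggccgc

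They lie at chr19:6057937-6057966 (plus strand), chr9:120571507-120571536 (plus), chr14:18270967-18270996 (minus) and chr7:4792955-4792984 (plus). The motif searched, a C at the annotated start followed by 4 bases that are each C or T on the strand of the gene, was in 14 of 58 ribosomal protein genes with a RefSeq promoter (24.1%) and in 2.95% of tested genes. A missing match says only that these letters are not at the annotated base.

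Of 20 translation factors with TOP mRNAs, 16 were above 0. The median was 0.14, and the pairs had 0.07, -0.33 and 0.49. Eif3f, a subunit of initiation factor eIF3, followed the tag 4 pair, with ratios of 0.663, 0.364 and 0.876 in HF gradients, against 0.579, 0.452 and 0.430 in Vehicle gradients. Pabpc1, the poly(A)-binding protein, ran against the list with 0.277, 0.277 and 0.403 in HF gradients, against 0.322, 0.412 and 0.553 in Vehicle gradients (-0.42 ± 0.33). Other initiation and elongation factors had a median of -0.07, close to all genes. Other lists of short mRNAs lay above 0 in the fit but not in each pair: 55 of 77 mitochondrial ribosomal proteins (median 0.09, tag 4 pair -0.19) and 51 of 72 nuclear oxidative phosphorylation subunits (0.12, tag 4 pair -0.09). Mitochondrially encoded mRNAs, which cytosolic ribosomes do not translate, had a median of 0.07 over 7 tested genes and pair medians of -0.41, 0.27 and 0.67. Their heavy to light ratios were 0.120, 0.0927 and 0.203 with HF, against 0.160, 0.0683 and 0.109 in vehicle. The 3 pairs thus lay on both sides of 0.

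The ATF4 and amino acid response list divided. Of 38 tested members, 25 were above 0, with a median of 0.12, against 39% of all genes above 0, and 3 (Atf3, Chac1 and Trib3) had an unadjusted p under 0.05 on the higher side, where 0.297% of all genes did. With the tag block 6 members did, against 0.974% of all genes. The pair medians were 0.22, -0.02 and 0.11, and the list median was 0.02 without the Vehicle untagged gradient. The share of both pools, as a mean over the 3 pairs, was higher with HF, by a median of 0.66 in heavy and 0.60 in light polysomes on the log2 scale. Members differed in the tag 2 pair. There Ddit3 had 36.3 CPM in HF heavy against 68.2 in Vehicle heavy, and Chac1 22.1 against 39.8. Trib3 went the other way, with 71.3 against 49.7 CPM.

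Atf4, the transcription factor of the response (chr15:80255184-80257541, plus strand), had ratios of 0.342, 0.241 and 1.10 in HF gradients, against 0.185, 0.301 and 0.333 in Vehicle gradients. The tag 4 HF gradient was far above the other 5, and the tag 2 pair went the opposite way. It had 669, 436 and 1750 CPM in HF heavy and 1954, 1809 and 1587 CPM in HF light libraries, against 300, 670 and 765 CPM in Vehicle heavy and 1618, 2223 and 2300 CPM in Vehicle light libraries. The log2 difference was 0.74 ± 0.51 (95% interval -0.38 to 1.86; unadjusted p = 0.1724) and was 0.21 without the HF tag 4 and 1.21 without the HF tag 2 gradient.

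Several other mRNAs with regulatory upstream reading frames were also named. Ddit3, which encodes CHOP, had 0.233, 0.215 and 0.458 in HF gradients, against 0.189, 0.242 and 0.267 in Vehicle gradients (0.30 ± 0.32). Atf5, a related factor, had 0.212, 0.189 and 0.472 in HF gradients, against 0.157, 0.229 and 0.253 in Vehicle gradients (0.35 ± 0.37). Ppp1r15a, the GADD34 phosphatase subunit that reverses eIF2 phosphorylation, had 0.283, 0.290 and 0.448 in HF gradients, against 0.235, 0.346 and 0.307 in Vehicle gradients (0.19 ± 0.27). The annotated spans of Atf5 and Ppp1r15a overlap those of Nup62 (571 bases) and Tulp2 (717 bases) on the other strand. In these 3 genes the untagged and tag 4 pairs were higher with HF and the tag 2 pair lower, and Ddit3 was at 0.05 and Atf5 at 0.03 without the HF tag 4 gradient. Cebpb, a transcription factor, differed from them, with pair differences of 0.39, 0.67 and 0.36 (0.47 ± 0.24), and Odc1, ornithine decarboxylase, had -0.36, 0.04 and -1.03 (-0.45 ± 0.31). Of 21 tested genes with regulatory upstream reading frames, 15 were above 0, with a median of 0.11.

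Among targets of ATF4, Asns had ratios of 3.17, 2.98 and 3.10 in HF gradients, against 2.58, 3.19 and 3.90 in Vehicle gradients (-0.04 ± 0.26), with no common direction over the pairs. Slc7a11, the cystine transporter, had 2.96, 1.58 and 2.15 in HF gradients, against 2.55, 1.90 and 1.40 in Vehicle gradients (0.25 ± 0.33). The tag 2 pair was lower with HF and the others higher. Eprs, the target of the drug, had 2.02, 1.12 and 1.86 in HF gradients, against 2.14, 1.11 and 1.42 in Vehicle gradients (0.11 ± 0.31). On the log2 scale its level, as a mean over the pairs, was 0.89 higher with HF in heavy and 0.79 higher in light polysomes. The tag 2 pair rose least, with 77.7 CPM in HF heavy and 68.0 CPM in Vehicle heavy libraries. Of 20 cytosolic aminoacyl-tRNA synthetases, 6 were above 0, with a median of -0.05, and those of mitochondria had a median of -0.06.

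Of 22 AP-1 and immediate early genes, 18 were above 0, with a median of 0.20 (0.02 without the Vehicle untagged gradient). Ier2 (0.46 ± 0.24) and Ier3 (0.44 ± 0.24), both induced early by growth factors, had the smallest p of the list. Ier2 had ratios of 0.256, 0.318 and 0.388 in HF gradients, against 0.218, 0.245 and 0.226 in Vehicle gradients. Nfkbia, the inhibitor of NF-kappaB, had 0.449, 0.269 and 0.581 in HF gradients, against 0.413, 0.185 and 0.198 in Vehicle gradients (0.74 ± 0.37). Its value was 1.11 without the Vehicle untagged gradient and 0.32 without both tag 4 gradients. Lists of mitosis, DNA replication, p53 targets, autophagy, inflammation and cytoskeleton had medians between -0.10 and 0.03. Noncoding RNAs had low ratios in both treatments. Malat1, a nuclear RNA, had 0.213, 0.220 and 0.201 in HF gradients, against 0.250, 0.300 and 0.286 in Vehicle gradients (-0.39 ± 0.23). Meg3, an imprinted RNA, had -0.74 ± 0.32, and 13 of 14 snoRNA host genes were below 0, with a median of -0.12.

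Coding length moved with the ratio in a way that differed between pairs of gradients. In 5 bins of 2284 genes each, the untagged pair median was 0.04 in the shortest bin (37 to 253 codons) and -0.19 in the longest (840 codons and more), and the tag 2 pair 0.24 and -0.24. The tag 4 pair ran the other way, at -0.10 in the shortest and 0.13 in the longest bin. The fit over 12 libraries was 0.06 in the shortest and -0.08 to -0.12 in the other bins. The proline share of the coding sequence gave no such order: its 5 bins had medians of -0.08, -0.08, -0.09, -0.06 and -0.04. The 10% of genes richest in proline had a median of -0.03, and the same for each of the 20 amino acids lay between -0.10 (isoleucine) and 0.01 (arginine), against -0.07 over all genes with a coding sequence.

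**Figure D4:**
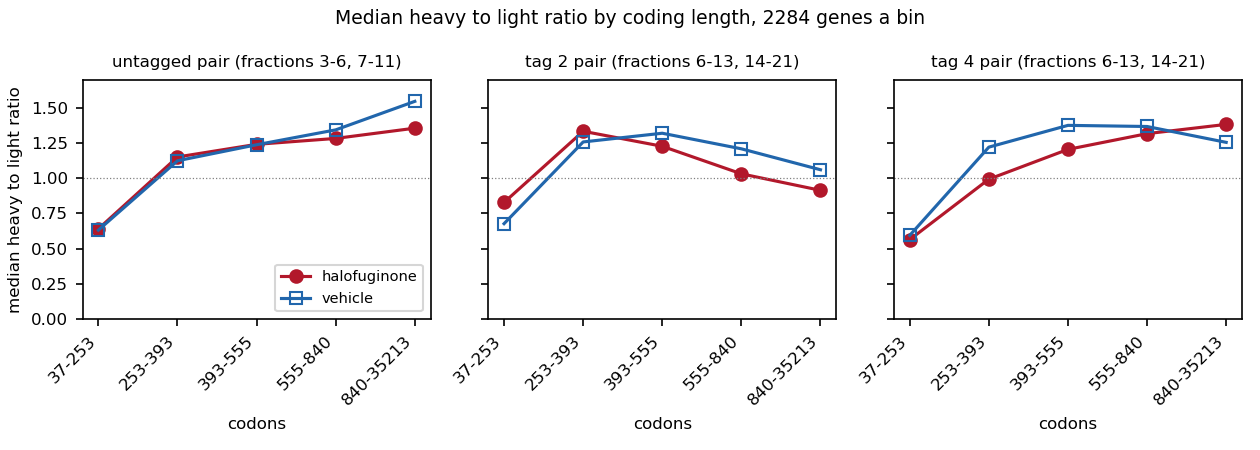
Median heavy to light ratio (linear axis) in 5 bins of coding length for HF and vehicle gradients, with 1 panel for each tag pair and its fractions. In the longest bin HF lies below vehicle in the untagged (1.36 with HF, 1.55 in vehicle) and tag 2 panels (0.914 with HF, 1.06 in vehicle) and above it in the tag 4 panel (1.38 with HF, 1.26 in vehicle).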

How the data were processed

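The authors deposited whole-number counts per gene symbol for 24 libraries. The build GRCm38.p5 and the tools featureCounts, Subread 1.5.0p3, STAR 2.5.2b and Trimmomatic 0.36 are named per the submitters' processing notes. What each did, and the strand setting, is not given in the sources used here. Columns were matched to groups by treatment and fractions in their headers, not to single samples. The members and gene lists were chosen with earlier results of these data known.

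The 12 heavy and light libraries were fitted with edgeR 4.0.16 (R 4.3.3) on the deposited counts, with its default filter, TMM scaling, each gradient as a block and a Benjamini-Hochberg threshold of 0.05. The heavy by HF term was tested. SE is the standard error of the log2 difference. Each CPM is a count scaled by TMM and library size, and pair differences of log2 ratios used a prior count of 2. No spike-in was used, so values are shares of a pool and not amounts. Same-tag gradients of the treatments correlated across 9990 genes in their deviations from the group mean at 0.614, 0.724 and 0.167. As each is over 0.1, the tags were taken to pair the gradients. The tag 4 HF gradient, however, correlated more with the untagged Vehicle gradient (0.328), and no label ties a tag to a culture. The untagged gradients alone were cut at fractions 3 to 6 and 7 to 11. Their correlation therefore cannot tell a shared culture from a shared cut. Replicates differed by more than sampling noise.

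Named genes were 16 chosen ones, the 10 highest and 10 lowest (filled by smallest unadjusted p among genes of at least 5 CPM whose ratios did not overlap), and the 2 members of smallest p in each list, and some are not reported here. Gm14438 is outside that rule, and members at the ends of a list were picked after their values were seen. Of 49568 symbols, 47240 were in GENCODE M21. Alternatives were the tag block, no block, a term for the set of fractions, the tagged gradients alone, DESeq2 1.42.0, other scaling and filters, and leaving out gradients. Leaving out both tag 2 or both tag 4 gradients was chosen after seeing the data. The procedure was tested on simulated data. 0 columns of other samples were used.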

Additional observations from a re-analysis of the deposited data

Results flagged for a closer look

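Lekr1, which encodes a protein rich in leucine, glutamate and lysine, was picked out because the effect of HF ran in opposite directions in the pools in every pair of gradients. The log2 difference of HF from vehicle was 0.53, 0.70 and 0.51 in heavy polysomes and -0.13, -0.08 and -0.47 in light polysomes. The heavy to light ratio was 0.477, 0.500 and 0.489 in HF gradients, against 0.292, 0.286 and 0.241 in Vehicle gradients, and the groups did not overlap. The fitted difference of differences was 0.84 ± 0.30 on the log2 scale (unadjusted p = 0.01614), which missed the threshold after adjustment over all genes. Its level was low, at 1.51, 4.09 and 2.53 CPM in HF heavy and 3.15, 8.18 and 5.17 CPM in HF light libraries, against 1.01, 2.47 and 1.74 CPM in Vehicle heavy and 3.45, 8.65 and 7.21 CPM in Vehicle light libraries.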

How the results depend on the processing

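With the tag as a replicate block over both treatments 3 genes were called, against 0 without it. Avil was also the 1 gene called by DESeq2, and 4 genes were called with no filter, Avil among them. The pseudogene Smt3h2-ps was the 1 gene called in the tagged gradients alone, and leaving out 1 gradient in turn gave 0 to 1 calls (1 without the Vehicle untagged gradient). The other settings called 0 genes, with 13 (no block) to 647 (without the HF tag 2 gradient) genes at an unadjusted p under 0.05. The share of those that were higher was 25% in the main fit, 57.1% with RLE, 42.5% with TMM within each pool, 58.7% with library totals and 83.3% at 5 CPM.

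Of 92 named genes, 83 kept their sign in all 18 settings. Many were picked for a small p or for ratios without overlap in these same libraries, so this count is no result. The same count over all tested genes was not made. Asns was at 0.04 with DESeq2 and RLE, 0.00 with TMM within each pool, 0.03 with library totals and 0.08 at 5 CPM. Acta2 was at 0.25 without any block. Without both tag 4 gradients the values were 0.40 for Acta2, 0.09 for Asns and Psmd6, -0.07 for Eif3f, -0.05 for Eprs and -0.01 for Ppp1r15a, and without both tag 2 gradients -0.53 for Gm14438. Leaving out 1 gradient in turn gave -0.62 to 0.25 for Acta2, -0.20 to 0.10 for Asns, -0.11 to 0.37 for Eprs, -5.23 to 10.16 for Gm14438, -0.14 to 2.0 for Hist1h1e, -0.44 to 0.23 for Hmgcs1 and -0.71 to 0.07 for Psmd6. The cause was not tested. Of 30 list medians, 20 had the opposite sign in at least 1 setting, and the collagens, collagen modification, other matrix, cholesterol, fatty acid, ER chaperone, TGF-beta, ribosomal protein, ATF4 and AP-1 lists did not. With a median standard error of 0.29 on the log2 scale, differences of the size of most list medians were not detectable for single genes.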
